A study of Homo sapiens with 40 samples.

Results

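The ZNF genes of chromosome 19 were described, defined as the protein-coding genes of GENCODE release 44 on that chromosome whose symbol begins with ZNF. The definition gave 248 genes of 19688 protein-coding genes, and another 265 ZNF genes lay on other chromosomes. Single genes were chosen by name and position and not by a level or fold change, but the set itself was selected on earlier results, namely the H3K27ac and CTCF log2 fold changes and adjusted p-values of these tables, so its values are a description. Peaks were then assigned to a gene where they overlapped the promoter window, 2 kb to either side of any start site of its protein-coding transcripts, or the last exon of its canonical transcript. Of 51489 H3K27ac peaks and 51457 CTCF peaks, 217 and 93 lay in these promoter windows, and 7 and 4 lay at the last exons.

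C2H2 zinc finger proteins bind DNA through tandem fingers, and in primates many of their genes stand in tandem arrays on chromosome 19 that arose by duplication. Many of the proteins carry a KRAB domain, which recruits TRIM28 and, with it, the histone methyltransferase SETDB1 and heterochromatin proteins, and many are known to silence transposable elements. The long last exon of such a gene, which codes for the fingers, is itself known as a place of repressive chromatin, to which ZNF274 binds. H3K27ac marks active promoters and enhancers, and CTCF is a DNA-binding protein that marks boundaries and anchors of chromatin loops.

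The cells were EndoC-βH3, a human pancreatic beta cell line whose immortalizing transgenes can be excised by a 4-hydroxytamoxifen (4-OHT) activated Cre recombinase. Senescent cells had been treated with 4-OHT for 3 weeks, and untreated non-senescent cells of the same line, labelled WT, were the controls. H3K27ac and CTCF were profiled by ChIP-seq in 3 senescent and 3 non-senescent libraries each, with an input library for each, so all groups stem from 1 line, and the labels do not say whether replicates were separate cultures. For Rb, the product of RB1, there were 2 libraries per state.

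The deposited tables hold, for each peak, the mean normalised count over the 6 libraries, the log2 fold change of senescent over non-senescent cells with its standard error (SE), and the adjusted p-value of the authors' DESeq2 fit across all peaks. Values of single libraries were not used here, so levels are given as the authors' mean without a spread, and the SE carries the replicate error. A p-value measures only the spread between these libraries, which may be technical. Because the authors' fit scales libraries to each other through their peaks, a change of the whole mark in 1 direction would not show. The H3K27ac log2 fold change was -2.29 (SE 0.145) at MKI67, a gene of dividing cells, and 2.50 (SE 0.157) at CDKN1A, the cell cycle inhibitor p21. All 11 beta cell marker genes that were looked up had an H3K27ac peak at their promoter. Marker genes were called by the strongest promoter peak of each gene alone. None of the 11 was called by the thresholds given below, although 8 of their 14 promoter peaks had an unadjusted p under 0.05. Of 9 marker genes of other cell types 3 had a peak (CPA1, KRT19 and SST), and KRT19 and SST were lost. By CTCF, ABCC8 was lost among the beta cell markers and none was called among the others, where 1 of 7 peaks had an unadjusted p under 0.05.

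The 248 genes fell into 11 clusters, here runs of at least 3 genes whose neighbouring start sites lie no more than 500 kb apart, and 11 genes stood alone. Cluster 1 (5 genes, ZNF554 to ZNF77, start sites at chr19:2819868-2944971), cluster 2 (14 genes, ZNF414 to ZNF846) and cluster 3 (25 genes, ZNF653 to ZNF791, chr19:11505839-12610920) lay on the short arm, in this order. Cluster 4, next to the centromere on the same arm, was the longest, with 37 genes from ZNF101 to ZNF254 over 4418 kb (chr19:19668839-24087187). Clusters 5 (5 genes, ZNF302 to ZNF792), 6 (26 genes, ZNF565 to ZNF573), 7 (3 genes, ZNF546 to ZNF780A) and 8 (23 genes, ZNF575 to ZNF180) followed on the long arm. Towards its end stood cluster 9 (40 genes, ZNF175 to ZNF331, chr19:51571283-53538145), cluster 10 (16 genes, ZNF628 to ZNF835, chr19:55476617-56671757) and cluster 11 (43 genes, ZNF264 to ZNF446, chr19:57191500-58476352). The coding sequences held a median of 12 matches to the C2H2 finger pattern, with 36 in ZNF208, and a median of 87.5% of the coding sequence lay in the last exon, whose median length was 3354.5 bp.

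Some of the promoters share sequence at their CTCF peaks. Of the 93 promoter CTCF peaks, 21 (22.6%) held a match to the CTCF core consensus on either strand, against 17.4% of the 11061 CTCF peaks in promoter windows of all protein-coding genes. The surroundings of 2 of these matches, at ZNF808 and ZNF700, were searched for near copies in the promoter windows of all protein-coding genes. The 36 bases at ZNF808 recurred, with up to 6 mismatches, at 15 places in the promoter windows of 13 genes of the set, all in cluster 9. No place was found that lay only in promoter windows of other protein-coding genes. Whether any of the 15 places also lay in the window of a gene outside the set was not counted. Each of these places lay upstream of its nearest start site, by 71 to 143 bp, on the strand opposite to the gene, and 8 of the 15 lay inside a CTCF peak. They are shown because neighbouring genes of 1 cluster carry near copies of the same stretch close to their starts, with a CTCF peak over some copies and not over others. Reads from copies this alike can be hard to place, so the counts of these peaks are uncertain. The first 6 below lay in a CTCF peak and the last did not. Capitals mark the 12 bases aligned to the core, and coordinates are hg38.
ZNF808 (chr19:52527527-52527562, minus strand): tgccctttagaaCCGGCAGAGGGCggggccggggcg
ZNF701 (chr19:52570146-52570181, minus strand): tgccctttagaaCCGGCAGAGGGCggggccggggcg
ZNF611 (chr19:52735147-52735182, plus strand): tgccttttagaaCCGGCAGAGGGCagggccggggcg
ZNF600 (chr19:52786860-52786895, plus strand): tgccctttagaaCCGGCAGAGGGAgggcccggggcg
ZNF765 (chr19:53395016-53395051, minus strand): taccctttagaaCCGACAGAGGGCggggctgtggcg
ZNF761 (chr19:53431843-53431878, minus strand): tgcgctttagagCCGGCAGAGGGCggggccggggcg
ZNF578 (chr19:52492688-52492723, minus strand): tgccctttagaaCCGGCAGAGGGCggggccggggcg

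The sites of ZNF578, ZNF808 and ZNF701 were identical over these 36 bases, and yet a CTCF peak was listed at ZNF808 and ZNF701 but not at ZNF578. Among the 8 peaks over such sites the mean count ran from 13.2 at ZNF83 to 189 at ZNF611. Their log2 fold changes ran from -1.05 at ZNF600 to 0.08 at ZNF765, and ZNF600 was the 1 peak of the 8 that passed the CTCF call given below. The site of ZNF700 recurred in cluster 3, at ZNF491, ZNF700, ZNF763 and ZNF20, again with no copy that lay only in windows of genes outside the set. It lay 926 to 1250 bp upstream on the strand of the gene, and every one of the 4 copies lay inside a CTCF peak. Capitals mark the core as before.
ZNF491 (chr19:11797579-11797614, plus strand): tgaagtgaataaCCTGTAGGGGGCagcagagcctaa
ZNF700 (chr19:11923800-11923835, plus strand): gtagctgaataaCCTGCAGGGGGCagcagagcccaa
ZNF763 (chr19:11964042-11964077, plus strand): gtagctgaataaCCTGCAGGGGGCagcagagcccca
ZNF20 (chr19:12141312-12141347, minus strand): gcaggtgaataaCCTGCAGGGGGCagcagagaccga

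At 3 of these, ZNF491, ZNF700 and ZNF20, the CTCF peak was among the strongest at any of the 248 genes, with mean counts of 426, 336 and 325. None of the 4 was called, and their log2 fold changes lay between -0.33 (ZNF763, SE 0.240) and 0.01 (ZNF20, SE 0.134). Copies of 1 site therefore stood in peaks of unlike mean count. The peaks also differed in width, from 1290 bp at ZNF763 to 2579 bp at ZNF491. Those at ZNF763 and ZNF20 each held a further core match, so the counts do not compare the copies alone.

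H3K27ac was present at most of the promoters. A peak overlapped the promoter window of 212 of the 248 genes (85.5%), against 86.0% of the ZNF genes on other chromosomes and 66.4% of all protein-coding genes. The mean normalised count of the 217 peaks ran from 18.5 at ZNF28 to 1822 at ZNF700, with a median of 284, and 12 peaks served the promoters of more than 1 ZNF gene. In 4 clusters (3, 5, 6 and 7) every gene had a peak. Cluster 4 was the exception, with a peak at 21 of 37 genes (56.8%), and 16 of the 36 genes that had none lay in it. There, 10 neighbouring genes from ZNF208 to ZNF730, over 1106 kb, had neither an H3K27ac nor a CTCF peak at the promoter. A shorter run of 4 genes from ZNF415 to ZNF677 in cluster 9 also had no H3K27ac peak. An interval that is not listed as a peak has no value in these tables, so no fold change can be given for these genes.

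**Figure D1:**
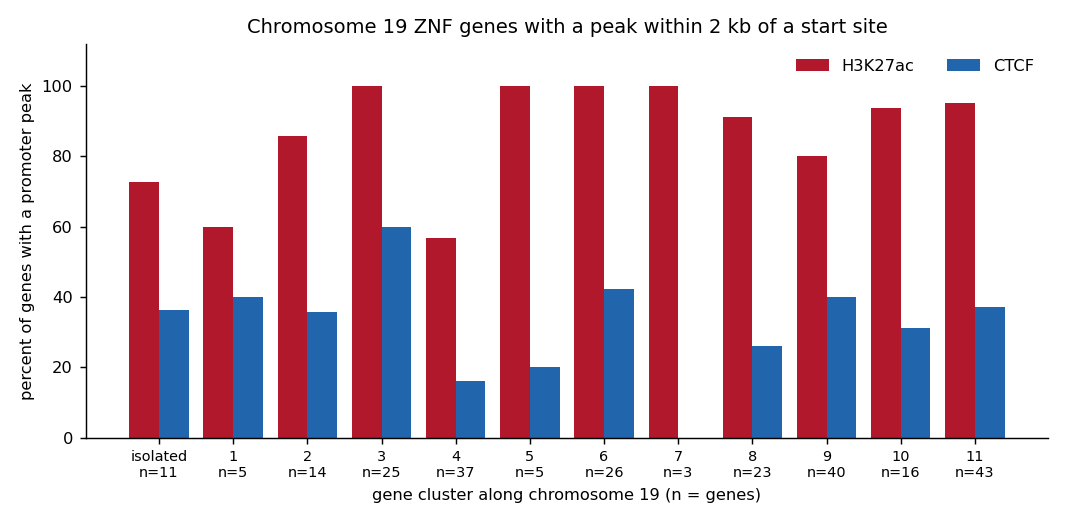
Percent of the genes in each cluster (n below the bars) that had an H3K27ac peak (red) or a CTCF peak (blue) within 2 kb of a start site. H3K27ac was at 100% of the genes of clusters 3, 5, 6 and 7 and at 56.8% in cluster 4, and CTCF reached 60% in cluster 3, 16.2% in cluster 4 and none in cluster 7.

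In senescent cells H3K27ac was on the whole a little higher at these promoters. The median log2 fold change over the 217 peaks was 0.23, with quartiles at 0.02 and 0.40 and a range from -1.34 to 1.11. Of the 217 peaks, 172 (79.3%) had a value above 0. Over the 14007 H3K27ac peaks in promoter windows of all protein-coding genes the median was 0.03, and 54.0% lay above 0. The median was 0.09 over 252 peaks of ZNF genes on other chromosomes and 0.13 over 705 peaks of other genes of chromosome 19. The 42 peaks of other genes that stand inside the clusters had a median of 0.17 with 83.3% above 0, and 10 peaks of other zinc finger genes of chromosome 19 had a median of 0.25 with 9 above 0. Every cluster had a median above 0, from 0.05 in cluster 5 to 0.40 in cluster 1, and the difference between these gene groups was not tested.

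**Figure D2:**
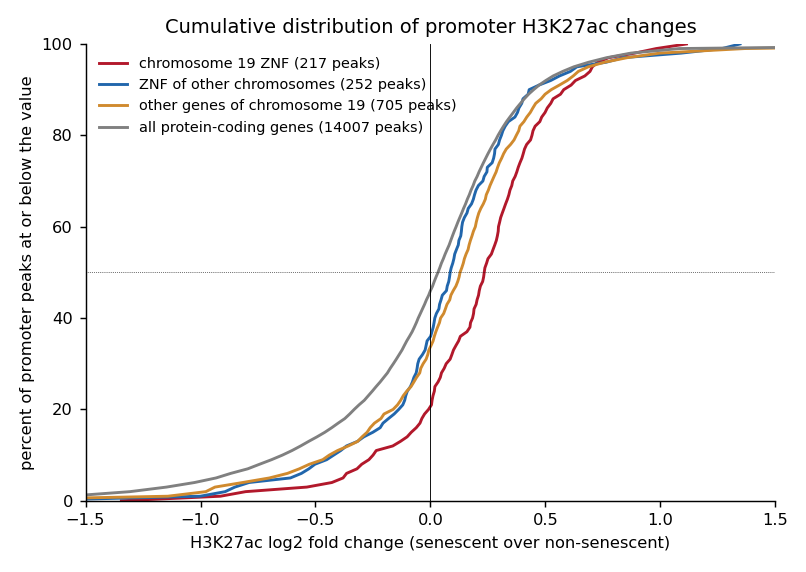
Cumulative distribution of the H3K27ac log2 fold change (senescent over non-senescent, x axis) over promoter peaks (y axis, percent of peaks at or below the value) for 4 gene groups. The curve of the chromosome 19 ZNF genes (red) crosses 50% at 0.23, to the right of the other ZNF genes (0.09), the other genes of chromosome 19 (0.13) and all protein-coding genes (0.03).

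Level and base composition of the peaks differ between gene groups, so the medians were also set side by side within strata. Among peaks with mean counts of 200 to 800 the median was 0.27 over 93 peaks of the chromosome 19 ZNF genes and 0.03 over all 5740 promoter peaks. From 800 counts they were 0.25 and 0.10. Among peaks with under 50% GC they were 0.36 and 0.08, between 50% and 60% GC 0.20 and 0.04, and from 60% GC 0.16 and -0.13. In each of these strata the median of the chromosome 19 ZNF genes was the higher of the pair. Below 50 counts, where only 10 of their peaks lay, it was 0.01 against -0.19. Within the 212 genes with a peak, the log2 fold change fell as the GC content of the peak rose (Spearman rho -0.27, Pearson r -0.25) and hardly went with the number of fingers (rho 0.077, r 0.016). These are descriptions across genes that share libraries, and some of which share a peak. With the trend of the log2 fold change against GC content removed, the median was 0.28 over the 217 peaks and 0.08 over all promoter peaks, and 27 of the 217 were gained.

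Judged by the adjusted p-value of DESeq2 alone, at 0.05, 77 of the 217 peaks (35.5%) were higher in senescent cells and 11 (5.07%) were lower. The background was 22.9% higher and 19.4% lower over the 14007 promoter peaks. With the fold threshold of 1.5 that the study also set, 20 peaks were gained (9.22%) and 5 were lost (2.30%). The background for that call was 4.53% gained and 9.81% lost over promoter peaks, and 9.47% and 13.1% over all H3K27ac peaks. Other genes inside the clusters had 9.52% gained and 4.76% lost over 42 peaks, some of them shared with the set. Other genes of chromosome 19 had 6.95% and 5.11%, and ZNF genes on other chromosomes 5.56% and 4.37%. In the set, the 20 gained peaks lay at 22 genes, and the 5 lost peaks at 5 genes. Most changes were small. A fold of 2 was passed by 2 gained peaks (ZNF175 and ZNF667) and 2 lost ones (ZNF878 and ZNF724). When the authors' values were tested against the fold threshold itself, ZNF667, 1 peak of ZNF331 and ZNF724 were left. Just inside the fold threshold were ZNF77 (1.51-fold) and ZNF790 (1.54-fold), and just outside it were ZNF585B (1.49-fold) and ZNF544 (0.671-fold). The edge of the window mattered at ZNF296 and ZNF576, where peaks with log2 fold changes of 0.62 and 1.26 lay 2078 and 2156 bp from the start site and were not counted, while the outermost peaks counted, at ZNF653 (0.25) and ZNF575 (0.27), lay at 1404 and 953 bp.

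**Figure D3:**
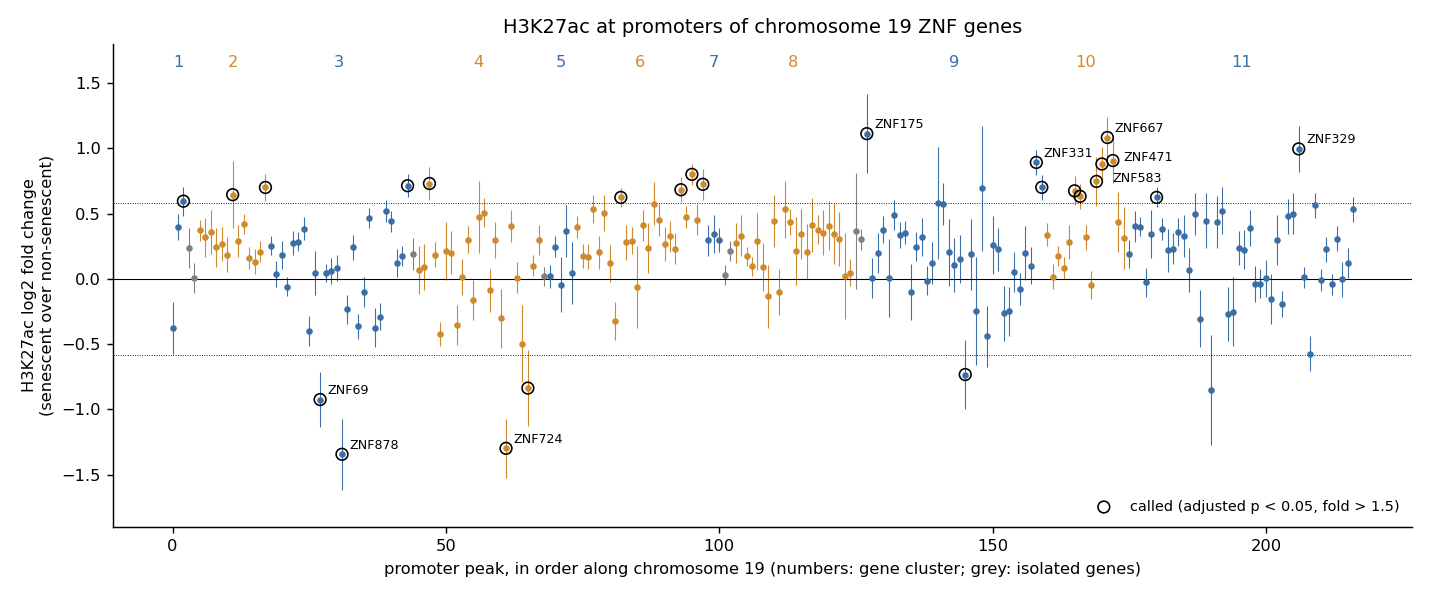
H3K27ac log2 fold change (senescent over non-senescent) of the 217 promoter peaks in their order along chromosome 19, with bars of 1 SE, coloured by cluster in alternation, with numbers of the clusters above. Rings mark the 20 gained and 5 lost peaks and dotted lines the 1.5-fold threshold. Most points lie above 0, and 4 neighbouring genes of cluster 10 (ZNF582, ZNF583, ZNF667 and ZNF471) were gained.

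The gains stood closest together in cluster 10, with 6 of its 15 peaks. The neighbouring genes ZNF582, ZNF583, ZNF667 and ZNF471, each had a gained peak, over 114 kb between their start sites, and no other run of 3 or more neighbours was gained. The promoters of several of them are known as places of DNA methylation in carcinomas. At ZNF667 (peak at chr19:56476448-56478776) the mean count was 171 and the log2 fold change 1.08 (SE 0.160, DESeq2 adjusted p 2.06e-10), a 2.12-fold increase. ZNF471 rose by 0.91 on the log2 scale (SE 0.174, adjusted p 1.56e-06 by DESeq2) and ZNF583 by 0.88 (SE 0.133, adjusted p 6.29e-10 by DESeq2). ZNF582 rose by 0.75 (SE 0.185, adjusted p 0.000298 by DESeq2). The next genes, ZNF470 and ZNF71, had values of 0.44 (SE 0.232) and 0.31 (SE 0.238) that did not pass. The other gained peaks of the cluster were a pair at ZNF580 and ZNF581, whose start sites share windows, with log2 fold changes of 0.67 and 0.63. ZSCAN5A, another zinc finger gene inside the cluster, was gained as well (0.71, SE 0.0920, adjusted p 3.78e-13 by DESeq2).

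The promoters of 2 gained genes of this run and of 2 lost genes are shown to set their CG content side by side. They are RefSeq promoter sequences (GRCh38.p14, 250 bases before to 50 after the start), with every CG in capitals. ZNF667 and ZNF582 were gained, and ZNF878 and ZNF724 were lost.
ZNF667 (chr19:56477296-56477595, minus strand): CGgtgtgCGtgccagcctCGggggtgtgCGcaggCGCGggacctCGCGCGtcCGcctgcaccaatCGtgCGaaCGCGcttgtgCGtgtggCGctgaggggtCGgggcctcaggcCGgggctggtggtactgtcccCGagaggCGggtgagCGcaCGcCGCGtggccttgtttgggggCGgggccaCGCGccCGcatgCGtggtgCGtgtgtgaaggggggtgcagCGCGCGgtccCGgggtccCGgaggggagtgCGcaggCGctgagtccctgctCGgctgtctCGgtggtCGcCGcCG
ZNF582 (chr19:56393485-56393784, minus strand): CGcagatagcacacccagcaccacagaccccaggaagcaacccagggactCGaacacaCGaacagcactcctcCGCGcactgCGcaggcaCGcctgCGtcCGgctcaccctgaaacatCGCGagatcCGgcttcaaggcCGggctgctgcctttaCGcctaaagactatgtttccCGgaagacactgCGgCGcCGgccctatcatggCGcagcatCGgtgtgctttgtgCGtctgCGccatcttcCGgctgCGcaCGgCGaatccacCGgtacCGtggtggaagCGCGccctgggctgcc
ZNF878 (chr19:12052912-12053211, minus strand): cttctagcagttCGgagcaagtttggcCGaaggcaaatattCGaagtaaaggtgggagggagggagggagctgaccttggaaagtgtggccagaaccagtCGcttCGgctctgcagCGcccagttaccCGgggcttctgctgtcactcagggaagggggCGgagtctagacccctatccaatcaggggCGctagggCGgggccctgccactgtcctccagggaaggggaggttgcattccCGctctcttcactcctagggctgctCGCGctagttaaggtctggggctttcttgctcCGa
ZNF724 (chr19:23250345-23250644, minus strand): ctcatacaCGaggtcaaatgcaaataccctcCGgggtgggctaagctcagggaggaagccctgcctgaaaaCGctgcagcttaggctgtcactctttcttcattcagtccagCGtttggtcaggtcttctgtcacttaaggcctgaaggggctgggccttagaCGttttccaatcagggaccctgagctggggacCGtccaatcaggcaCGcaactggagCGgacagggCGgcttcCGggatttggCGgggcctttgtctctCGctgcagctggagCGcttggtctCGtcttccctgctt

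The 4 hold 42, 30, 14 and 14 CG dinucleotides. A promoter sequence was matched for 217 of the 248 genes, and the median was 20 CGs and 60% GC, against 22 and 63.0% over 15307 protein-coding promoters. The medians were 23 CGs over the 17 matched genes whose strongest promoter peak was gained and 14 over the 5 genes with a lost peak, so the 4 printed show a difference that is narrower in the medians. The 28 genes without an H3K27ac peak had a median of 15 CGs and 56.7% GC. Of letter motifs searched on both strands, the ETS motif CCGGAAG stood in 45.6% of the 217 promoters, against 34.0% of those of other ZNF genes and 14.4% of all. CCAAT stood in 53.9%, against 43.3% of those of other ZNF genes and 36.6% of all. The TATA motif TATAAA stood in 1.84%, against 4.19% and 9.64%. The ETS motif was in 4 of the 17 gained promoters and in 14 of the 28 without a peak.

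Cluster 6 had a high median too, 0.36, with 22 of 24 peaks above 0. Its 4 gained peaks were at the shared promoter of ZNF571 and ZNF540 (0.80, SE 0.0820, DESeq2 adjusted p 9.58e-21), at ZNF573 (0.72), at the shared promoter of ZNF569 and ZNF570 (0.68) and at ZNF790 (0.62). By the adjusted p-value alone, 14 of its 24 peaks were higher and none was lower. ZNF568, whose mouse counterpart is known to repress a placental promoter of Igf2, had values of 0.29 (SE 0.105) at the start site it shares with ZNF829 and -0.06 (SE 0.315) at a second one, neither called. The 3 genes of cluster 7, ZNF546, ZNF780B and ZNF780A, had values within a narrow range, 0.29 to 0.34, and all 3 passed the adjusted p-value alone but not the fold threshold.

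Clusters 1 and 2 had few peaks, of which 1 of 3 (33.3%) and 2 of 13 (15.4%) were gained, against 4.53% over all promoter peaks. Clusters 5 and 8 had no calls. In cluster 2 all 13 peaks were above 0 (median 0.29), and ZNF426 (0.65, SE 0.254, mean count 70.2) and 1 of 3 peaks of ZNF846 (0.70, SE 0.105) were gained. The other peaks of ZNF846 had values of 0.13 and 0.21. ZNF77 was the 1 gained peak of cluster 1 (0.60, SE 0.111). In cluster 5 the 5 values lay between -0.04 and 0.37, and ZNF181, the strongest, had 0.25 (SE 0.0801). Cluster 8 had 20 of 22 peaks above 0 with a median of 0.30, and yet none was called. Its counts were mostly low, and among those with the smaller errors were ZNF223 (0.43, SE 0.0968) and ZNF226 (0.38, SE 0.112). ZNF576, its strongest peak with a mean count of 1639, had 0.17 (SE 0.0702). The 8 genes outside the clusters that had a peak showed values from 0.01 to 0.37, and none was called.

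In cluster 9 the gained peaks lay at its ends. ZNF175, described as an antiviral factor in macrophages, was gained at its first gene (1.11, SE 0.304, DESeq2 adjusted p 0.00115), at a mean count of only 45.8. ZNF331, an imprinted gene, stood at the other end with 2 gained peaks at different start sites, 0.89 (SE 0.0949, DESeq2 adjusted p 2.57e-19) and 0.70 (SE 0.0933). The remaining peak of ZNF331, at another start site, had 0.10 (SE 0.142), so its start sites did not have like values. ZNF83 was lost in this cluster (-0.73, SE 0.265, DESeq2 adjusted p 0.0177). In cluster 11, with 42 peaks and a median of 0.23, 2 peaks were gained, at ZNF547 (0.62, SE 0.0761, mean count 1211) and at the second start site of ZNF329 (1.00, SE 0.175). The first start site of ZNF329 had 0.50 (SE 0.158), and ZNF544 fell just short of a loss (-0.57, SE 0.135). ZNF274, which binds the last exons of zinc finger genes and recruits SETDB1 there, had 0.01 (SE 0.0783) at a mean count of 828.

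Clusters 3 and 4 had low medians among the clusters, 0.07 and 0.09, and 4 of the 5 losses. Their lost shares, 2 of 26 peaks (7.69%) and 2 of 23 (8.70%), were below the 9.81% over all promoter peaks. The median over all promoter peaks was 0.03. In cluster 3, 9 of 26 peaks were higher and 6 lower by the adjusted p-value alone. ZNF878 fell the most (-1.34, SE 0.272, DESeq2 adjusted p 6.02e-06), to 0.394 of the level in non-senescent cells, and ZNF69 fell by 0.92 (SE 0.211, DESeq2 adjusted p 7.38e-05). The gained peak of the cluster was the shared promoter of ZNF490 and ZNF791 (0.71, SE 0.0862, DESeq2 adjusted p 3.73e-15). ZNF44, ZNF799 and ZNF443 had values of 0.47, 0.52 and 0.44, under the fold threshold, while ZNF440 and ZNF625 had -0.40 and -0.36. The neighbours ZNF491 (0.38, SE 0.0894) and ZNF440 (SE 0.114) differed in sign, each past the adjusted p-value alone. ZNF700, the strongest promoter of all, had 0.04 (SE 0.0691).

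In cluster 4 ZNF506 was gained (0.73, SE 0.126, DESeq2 adjusted p 7.29e-08), and ZNF724 (-1.30, SE 0.224, DESeq2 adjusted p 7.35e-08) and ZNF726 (-0.84, SE 0.291, DESeq2 adjusted p 0.0131) were lost. A pair of genes of this cluster are known repressors of primate retroelements. ZNF91, which represses SVA and LINE-1 elements, had 0.41 (SE 0.124, adjusted p 0.00428 by DESeq2), while ZNF93, which represses LINE-1, had -0.42 (SE 0.0937, adjusted p 4.37e-05 by DESeq2). Their values had opposite signs, and neither passed the fold threshold. The 5 lost peaks had mean counts between 48.3 and 93.0, in the lower part of the range, while gained peaks ran from 45.8 to 1248. Across neighbouring genes with different peaks, the log2 fold changes of the 2 genes of a pair hardly went together (Spearman rho 0.070, Pearson r 0.11, 185 pairs), a description over genes of 1 chromosome that share libraries.

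The promoter peaks whose values follow, among them the widest and those of genes outside the clusters, were not called. ZNF507 had the widest promoter peak, 7473 bp, with a log2 fold change of 0.02 (SE 0.0751). ZNF473, which takes part in the processing of histone transcripts, had 0.30 (SE 0.0785, DESeq2 adjusted p 0.000568), and ZNF574, the strongest of the genes that stand alone, had 0.03 (SE 0.0759). The strongest promoters of clusters 10 and 11, ZNF524 and ZNF460, had 0.17 (SE 0.0785) and 0.40 (SE 0.0734). Those of clusters 1, 4 and 9, ZNF555, ZNF254 and ZNF432, had 0.40 (SE 0.0995), 0.10 (SE 0.0802) and 0.35 (SE 0.0869). Promoter windows of 6 genes (2.42%) overlapped intervals listed as enhancers in each state, against 4.03% of all genes in non-senescent and 3.73% in senescent cells. The study took enhancers only from outside promoters, with promoters within 2 kb of start sites of another annotation. That definition itself keeps these shares low, so they say little about the promoters. The genes are named for completeness. The genes were ZNF524, ZNF580, ZNF581, ZNF587B, ZNF653 and ZNF865, the same 6 in both states.

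CTCF peaks were fewer, and their median change at these promoters was close to that at promoters in general. A CTCF peak lay in the promoter window of 87 of the 248 genes (35.1%), against 47.5% of other ZNF genes and 47.6% of all protein-coding genes. It was most frequent in cluster 3 (15 of 25 genes) and absent in cluster 7. The median log2 fold change over the 93 peaks was -0.17, the same to 2 decimals as over the 11061 promoter CTCF peaks. The peaks were weak, with a median mean count of 36.4 and a median SE of 0.369. Of the 93, 27 had no adjusted p-value in the table and could not be called. Among these was the peak of ZNF540 (-1.88, SE 0.498, mean count 17.6). Its unadjusted p by DESeq2, 0.000167, was the smallest of the 93. CTCF was called at an adjusted p under 0.2, the study's threshold, and a fold above 1.5. By that call none was gained and 8 (8.60%, at 9 genes) were lost. The background was 0.488% gained and 4.42% lost over promoter peaks, and 2.29% and 3.28% over all CTCF peaks. Beside the count of 0 gained by DESeq2, 1 peak had an unadjusted p under 0.05 upwards, at ZNF582, and 15 had one downwards. Tested against the fold threshold itself, 0 of the 8 losses were left. With p-values adjusted over all peaks, also those without an adjusted p-value in the table, 10 of the 93 were lost.

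**Figure D4:**
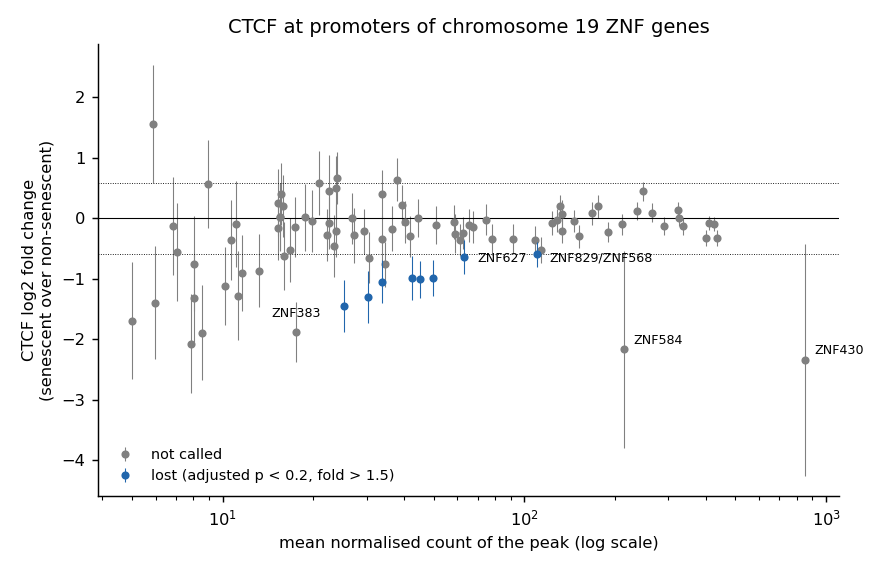
CTCF log2 fold change (senescent over non-senescent, with bars of 1 SE) of the 93 promoter peaks against the mean normalised count of the peak (log scale). The 8 lost peaks (blue) lie between 25.2 and 110 counts, and the strongest peak of all, at ZNF430, has an SE of 1.91.

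The lost CTCF peaks stood at ZNF383 (-1.46, SE 0.429, DESeq2 adjusted p 0.0311), ZNF878 (-1.30, SE 0.426), ZNF600 (-1.05, SE 0.357), ZNF544 (-1.01, SE 0.305), ZNF440 (-0.99, SE 0.298) and ZNF551 (-0.99, SE 0.358). Smaller losses were those of ZNF627 (-0.64, SE 0.278) and of the start site shared by ZNF568 and ZNF829 (-0.60, SE 0.210), the 2 just inside the fold threshold. Just outside it were ZNF555 (-0.52) and, upwards, ZNF582 (0.45). Of the 8 lost peaks, 1, at ZNF383, held a match to the CTCF core, against 21 of all 93. Over all promoter peaks the CTCF log2 fold change had a median of 0.03 below 50% GC and of -0.28 from 60% GC. Among the 93 peaks the medians were -0.20, -0.11 and -0.34 below 50%, from 50% to 60% and from 60% GC, with 2 of 15, 3 of 46 and 3 of 32 peaks lost. With the trend against GC taken out, the median over the 93 peaks became -0.03, and the calls at ZNF383 and ZNF440 were left. The log2 fold changes of the lost peaks stayed negative, with values of -0.98 at ZNF878, -0.88 at ZNF600, -0.86 at ZNF551 and -0.70 at ZNF544.

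ZNF878 was the 1 gene of the set at which both marks were lost, in overlapping peaks (H3K27ac -1.34 and CTCF -1.30). At ZNF582 both values were positive (0.75 and 0.45). Across the 84 genes with both marks the log2 fold changes had a Spearman rho of 0.19 and a Pearson r of 0.17, and the marks came from different libraries of the same states. ZNF274 had a CTCF value of -0.76 (SE 0.365, DESeq2 adjusted p 0.232) that was not called. A pair of strong CTCF peaks could not be read at all. At ZNF430 the peak with the highest mean count, 854, had a log2 fold change of -2.34 with an SE of 1.91 and a GC content of 1.05%, and at ZNF584 a peak of 214 counts had -2.17 with an SE of 1.63 and 11.2% GC. The strongest CTCF peak of cluster 5, at ZNF302, was weak (15.2 counts, -0.17, SE 0.517). ZNF554, ZNF266, ZNF568, ZNF576, ZNF616, ZNF580 and ZNF329 led clusters 1, 2, 6, 8, 9, 10 and 11 with values between -0.33 (ZNF568, SE 0.134) and 0.14 (ZNF329, SE 0.127). In cluster 8, 4 of the 6 CTCF peaks had values above 0, with a median of 0.39, and none was called.

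The finger-coding last exons were almost without peaks of either mark. An H3K27ac peak overlapped the last exon of 8 of the 248 genes, in 7 peaks, and a CTCF peak that of 4. Once peaks in promoter windows were set aside, 1 gene (0.403%) had H3K27ac and 2 (0.806%) had CTCF at the last exon. Of the 19440 other protein-coding genes, 7.08% and 7.91% had one. The shares were also low among long exons. From 4 kb upward, 0 of 89 had H3K27ac and 1 (1.12%) had CTCF, against 12.8% and 14.8% of other genes. The tables list called peaks alone, so signal under the peak callers' thresholds cannot be seen. ZNF genes of other chromosomes lay between, with 3.40% and 7.17% over all lengths.

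**Figure D5:**
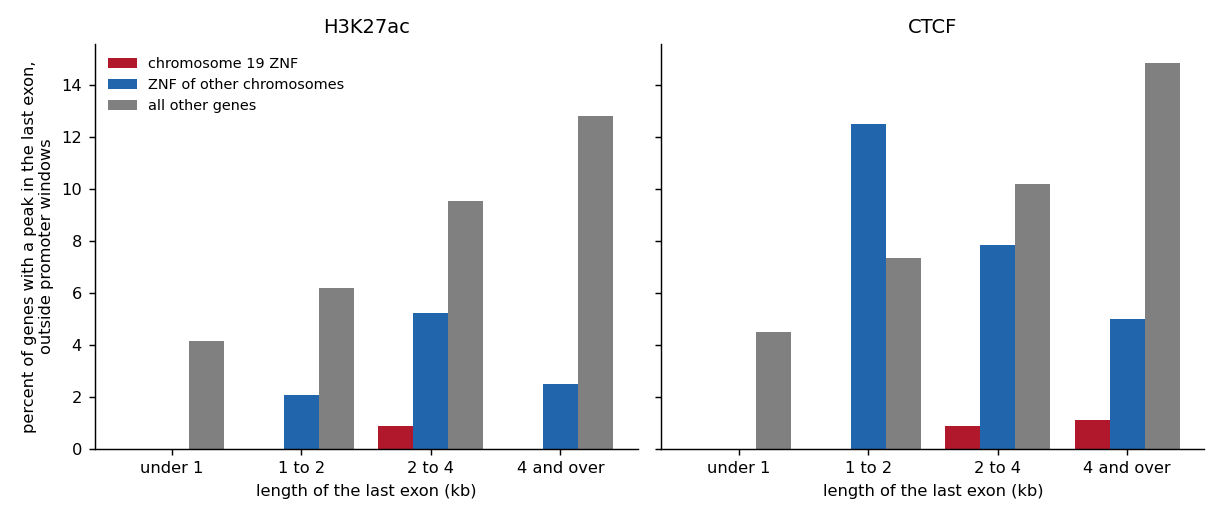
Percent of genes with an H3K27ac peak (left) or a CTCF peak (right) in the last exon and outside promoter windows, by length of the last exon, for the 248 chromosome 19 ZNF genes (red), 265 ZNF genes of other chromosomes (blue) and all other genes (grey). The red bars reach 0.893% (2 to 4 kb) for H3K27ac and 1.12% (4 kb and over) for CTCF, and the grey bars 12.8% and 14.8%.

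Of the 7 H3K27ac peaks at last exons, 3 were gained and none was lost (none was lower at an unadjusted p under 0.05 either), against a background of 8.89% gained and 8.78% lost over 2732 last-exon peaks. The strongest of them was a peak of 12.24 kb at ZNF296 (chr19:45061141-45073380), a gene linked to pluripotency, which had a mean count of 1404 and rose by 1.67 on the log2 scale (SE 0.0714, DESeq2 adjusted p 1.60e-117), a 3.19-fold increase. It had the fourth smallest p-value of the 51489 H3K27ac peaks. The peak also overlapped the promoter window, taken around any start site, of a protein-coding gene outside the set. The last exon of ZNF296 lies in an enhancer listed for senescent cells and in none listed for non-senescent cells. At the start site of ZNF296 itself the peak was weak (19.3 counts) and not called (0.37, SE 0.444). The other gained peaks were 1 shared by ZNF580 and ZNF581, which reaches into their promoters, and a weak one at ZNF576 (1.26, SE 0.537, mean count 15.0, DESeq2 adjusted p 0.0489). The remaining ones, at ZNF628, ZNF579, ZNF524 and ZNF324, had values from 0.02 to 0.53.

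The 4 CTCF peaks at last exons lay at ZNF653, ZNF574, ZNF575 and ZNF473, and DESeq2 called 0 of the 4, against a background of 1.24% gained and 4.55% lost. At an unadjusted p under 0.05, 0 were higher and 1 was lower, at ZNF473. ZNF653, the strongest at 324 counts, had 0.05 (SE 0.137), and ZNF473 had -0.62 (SE 0.291, DESeq2 adjusted p 0.220).

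A list of 26 genes, named here as partners in KRAB repression in a broad sense, was looked up. All 26 had an H3K27ac promoter peak, and the strongest of each gene was taken. The median was 0.00 on the log2 scale, and 1 was gained and 3 were lost. Over all promoter peaks 4.53% were gained and 9.81% lost, so the counts of the list are near the background. EHMT1, a histone H3K9 methyltransferase, was gained (0.90, SE 0.0858, DESeq2 adjusted p 4.76e-24). UHRF1 (-1.57, SE 0.189), CHD3 (-1.18, SE 0.0965) and DNMT1 (-0.90, SE 0.104), which maintain DNA methylation or remodel nucleosomes, were lost. TRIM28 (0.13, SE 0.0830) and SETDB1 (0.18, SE 0.0661) were not called. None of the 13 with a CTCF promoter peak was called at the strongest one, and 2 of their 20 CTCF peaks had an unadjusted p under 0.05. Among 15 other zinc finger genes of chromosome 19 (14 matched, 9 with an H3K27ac promoter peak), ZSCAN5A was gained and ZFP82 was lost (-0.64, SE 0.230). No CTCF peak of these genes was called, and 1 of 4 had an unadjusted p under 0.05.

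Regions of Rb, deposited as a list for senescent cells against non-senescent cells without values, lay in the promoter windows of 5 of the 248 genes (2.02%), ZNF253, ZNF254, ZNF274, ZNF430 and ZNF574, against 1.56% of all protein-coding genes. The last exons of ZNF430 and ZNF99 also held one (0.806%, against 15 of 19688 genes or 0.0762%). The one at ZNF430 is 31 bp long (chr19:21057260-21057290) and is the same region in both counts, since another start site of the gene lies near. These last-exon shares rest on 2 genes of the set and were not matched for exon length. The median length was 3354.5 bp in the set and 1403.5 bp over other protein-coding genes. In the study, Rb regions were called with MACS2 by a cutoff on the p-value without adjustment. Where the strongest H3K27ac promoter peak of each of the 5 genes was taken, the log2 fold changes lay between 0.01 and 0.20, and none was called. At ZNF254 the Rb region lay in another H3K27ac peak, with 0.30 (SE 0.116, DESeq2 adjusted p 0.0297), under the fold threshold. At ZNF430 the H3K27ac peak (chr19:21020228-21021503) did not overlap the Rb region.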

How the data were processed

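ChIP-seq libraries of EndoC-βH3 cells were analysed from the authors' processed tables (hg38). The authors, by the methods they give, trimmed reads, aligned them with Bowtie2, removed duplicates, called peaks with HOMER (H3K27ac) or MACS2 (CTCF, Rb) and tested raw counts in peaks with DESeq2, and versions are not given in the sources used here. The deposited tables give the mean normalised count (a signal averaged by the authors over libraries), the log2 fold change with its SE, a Wald score, and the p-value with its adjusted p-value. Values per library were not used, so the edgeR quasi-likelihood test planned for counts was not run, and the authors' fit across all peaks was taken as it stands. These columns are the authors' own comparison and are credited to their tables throughout. Depth per library cannot be given from them. At the study's CTCF thresholds the deposited values gave 1690 lost and 1180 gained peaks. The paper reports fewer in each direction among sites with the CTCF motif. The CTCF peaks used here therefore appear to reach beyond the motif-filtered set of the paper.

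Interval starts were read as 0-based and are printed 1-based. Start sites and exons came from GENCODE 44, and an overlap of 1 bp sufficed. Calls used an adjusted p under 0.05 (H3K27ac) or 0.2 (CTCF) and a fold above 1.5. Genes and lists were chosen with earlier results of these data known. Genes were named by rule: called peaks, the strongest promoter of each cluster, those next to the fold threshold, called list genes, last-exon peaks, genes with an Rb region and 6 known genes (ZNF274, ZNF91, ZNF93, ZNF331, ZNF473 and ZNF568). ZNF28, ZNF44, ZNF799, ZNF443, ZNF625, ZNF223, ZNF226, ZNF470, ZNF71, ZNF546 and ZNF780B, and the recurring CTCF sites, were picked after their values were seen. The GC trend was the median log2 fold change in 50 bins of GC over peaks outside promoters, interpolated and subtracted from each peak. Code was tested on simulated data. Python 3.11.15, numpy 2.4.6, pandas 2.3.3 and scipy 1.17.1 were used.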

Additional observations from a re-analysis of the deposited data

How the results depend on the processing

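No paired analysis was possible because the tables hold 1 row of fitted values per peak and no value per library, and leaving out a replicate could not be run for the same reason. The median H3K27ac log2 fold change stayed between 0.23 and 0.28 under the 6 alternatives, and that of CTCF between -0.23 and -0.03. A fold above 2 left 2 gained and 2 lost H3K27ac promoter peaks and 4 lost CTCF peaks. A stricter adjusted p left 3 lost H3K27ac peaks (under 0.01) and 3 lost CTCF peaks (under 0.05). Testing against the fold threshold itself left 2 gained and 1 lost H3K27ac promoter peaks, 1 gained at last exons and 0 lost CTCF peaks. A mean count of at least 50 left 2 lost CTCF peaks, as did removal of the GC trend, which gave 27 gained H3K27ac promoter peaks. At last exons, 1 gained H3K27ac peak was left where at least 0.5 of the peak had to lie inside the exon, and 1 without peaks in promoter windows. Gaps of 250 kb and 1 Mb gave 15 and 10 clusters. The other counts stayed within 1.5 times. Leaving out peaks shared with other genes was chosen after seeing the data.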
